A study of Rattus norvegicus with 6 samples.

Results

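The mature microRNAs examined have sequences that lie in 1 stretch of rat chromosome 13: rno-miR-199a-3p, rno-miR-199a-5p and rno-miR-214-3p. They were chosen by their gene names on the array, which gave 3 miRNAs of the 758 measured, all 3 of them among the 230 that were detected on at least 3 arrays and tested. The data came from 6 one-colour Agilent rat miRNA arrays of fetal terminal hindgut, 3 with an anorectal malformation (ARM) and 3 control. In the ARM group, pregnant Sprague Dawley rats were given a 1% solution of ethylenethiourea (ETU, a thyroid peroxidase inhibitor) into the stomach on gestational day 10, at a dose of 125 mg/kg, and fetuses in which a malformation was seen under the microscope were used. In the control group the samples came from healthy fetuses, and control dams were given distilled water on the same day. All fetuses were taken on embryonic day 20, and 1 cm of terminal hindgut was frozen from each. The labels give no genotype beyond the stock, no litter for any sample and no count of fetuses per sample, so the p-values reflect the spread among the deposited samples and no more. ETU exposure and malformation occur together in the ARM group and cannot be told apart.

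MicroRNAs are short RNAs that pair through their seed, bases 2 to 8, with messenger RNAs and lower their output. In mouse, miR-199a and miR-214 are cut from a long noncoding RNA, Dnm3os, which is transcribed on the strand opposite the dynamin gene Dnm3 and is active in embryonic mesenchyme, the loose tissue that gives rise to connective tissue and the muscle coat of the gut. The miR-199a precursor yields a mature miRNA from each arm, and another precursor gene within Dnm2 yields the same miR-199a arms in mouse and human, so a probe for them does not show which precursor was used.

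The mature sequences are shown because they separate the members by seed. They are from RefSeq, build GRCr8, written 5′ to 3′ with the seed in capitals. The other arm of the miR-214 precursor, also on the array, is given with them.
miR-199a-3p: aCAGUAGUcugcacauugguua
miR-199a-5p: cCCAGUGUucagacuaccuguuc
miR-214-3p: aCAGCAGGcacagacaggcag
miR-214-5p: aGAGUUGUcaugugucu

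All 3 members matched a RefSeq entry by name, as did 685 of the 758 miRNAs on the array. The seeds of miR-199a-3p and miR-214-3p were identical at 5 of 7 positions, those of miR-199a-3p and miR-199a-5p at 3 of 7, and those of miR-199a-5p and miR-214-3p at 2 of 7. Among the array's miRNAs with a RefSeq sequence, no other one had any of these 3 seeds. GC content was 40.9% for miR-199a-3p, 52.2% for miR-199a-5p and 61.9% for miR-214-3p.

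On GRCr8, miR-199a-5p lies at chr13:77116255-77116277 and miR-199a-3p at chr13:77116294-77116315, both on the plus strand in the gene Mir199a2. The miR-214-3p sequence lies at chr13:77121713-77121733 on the same strand, in the gene Mir214. The 2 precursor genes are 5310 bases apart, and both lie inside the bounds of Dnm3 (chr13:76892381-77371346), which is on the minus strand. Their place relative to exons and introns of Dnm3 was not analysed here. The Mir214 hairpin of 108 bases (chr13:77121645-77121752, plus strand) is shown with its 5p and 3p arms in capitals, because only 1 of its arms was detected.
Mir214: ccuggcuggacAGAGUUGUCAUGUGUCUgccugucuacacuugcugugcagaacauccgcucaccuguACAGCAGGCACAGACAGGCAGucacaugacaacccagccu

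The members were measured far above background on every array. Each had 2 probes with 8 spots per array, and all 288 member spots over the 6 arrays were well above background and none was saturated. The scanner software marked 31 of the 288 as outliers, and these were left out. The spread among the remaining spots of a probe on 1 array had a median coefficient of variation of 3.66%, with a range of 0.56% to 16.8%. It was widest for miR-199a-5p, with a median of 9.02%, against 3.08% for miR-199a-3p and 3.12% for miR-214-3p. By contrast, none of the 96 spots of miR-214-5p was well above background on any array, and its mean signal per array lay between -2.80 and -0.40 after background subtraction, so it was not tested.

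The arrays themselves differed in brightness. The 75th percentile of signal over the 300 probes that every array detected reached 203, 210 and 221 on the ARM arrays, against 290, 278 and 225 on the control arrays (replicates 1 to 3 of each). Each array was scaled to this percentile before the groups were compared. ARM replicate 3 was alone on slide 2, and the other 5 arrays shared slide 1. Control replicate 3 was the control closest to ARM in brightness.

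Before scaling, all 3 members were dimmer in ARM than in control, with no overlap between the groups. The same held for 76 of the 230 tested miRNAs (33%) on these dimmer ARM arrays. The unscaled processed signal of miR-199a-3p was 1408, 1211 and 1382 in ARM replicates 1 to 3, against 2185, 1910 and 2044 in control replicates 1 to 3. The brightest ARM array was thus below the dimmest control array. That of miR-199a-5p was 326, 265 and 374 in ARM, against 588, 499 and 475 in control. That of miR-214-3p was 1042, 898 and 958 in ARM, against 1627, 1395 and 1504 in control. The ratio of mean signals, ARM over control, was 0.652, 0.618 and 0.640 for the 3 members in that order. The two-sided exact permutation test gave p = 0.1 for each, the smallest that 3 against 3 allows.

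**Figure D1:**
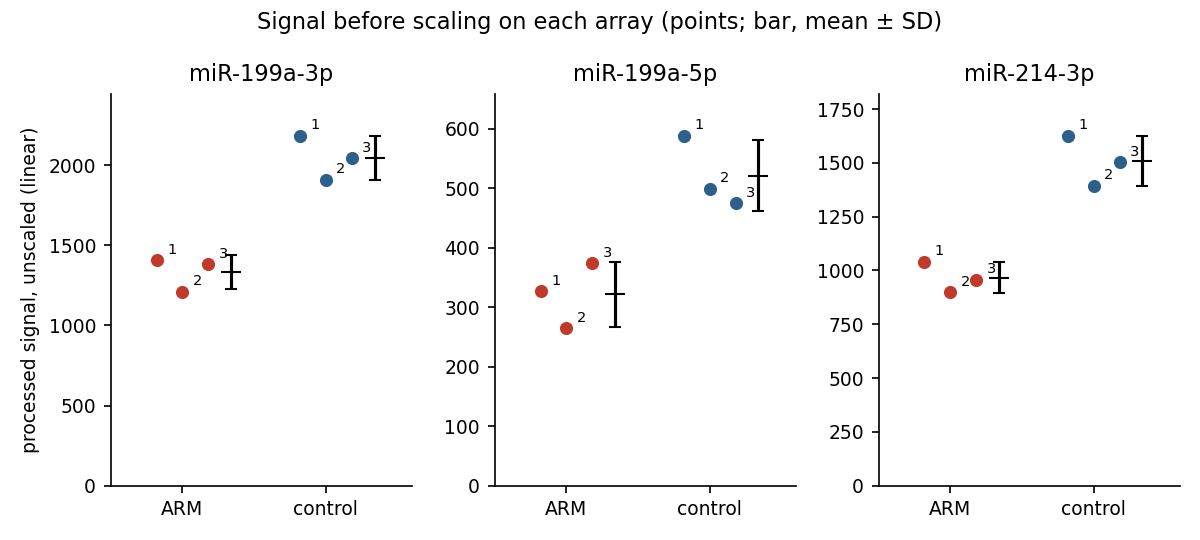
Unscaled processed signal (linear, vertical axis from 0) of each member on the 3 ARM arrays (left) and the 3 control arrays (right). Points are arrays with their replicate number and bars are the mean ± SD; for each member all ARM arrays lie below all control arrays, as they do for 76 of the 230 tested miRNAs (33%).

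After scaling, the point estimates of all 3 members were still lower in ARM, but none passed the test. On the scaled log2 scale, miR-199a-3p, which in cell experiments represses the kinase mTOR, had levels of 10.52, 10.21 and 10.38 in ARM replicates 1 to 3, against 10.62, 10.49 and 10.88 in control replicates 1 to 3. The groups overlapped, with ARM replicate 1 above control replicate 2. They did not overlap with normexp background correction or with only the brightest probe of each miRNA. As processed here, the means were 10.37 ± 0.15 in ARM and 10.66 ± 0.20 in control (SD, n = 3 each). The difference, ARM minus control, was -0.29 (SE 0.19), or 0.816-fold with a 95% interval of 0.602 to 1.11 (limma, adjusted p = 0.242; two-sided exact permutation test, p = 0.2).

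For miR-199a-5p, the opposite arm, known to repress the hypoxia factor Hif1a in heart cells of rat, the scaled log2 levels were 8.02, 7.69 and 8.13 in ARM, against 8.34, 8.22 and 8.44 in control. The highest ARM array, replicate 3, lay below the lowest control array, replicate 2, so the groups did not overlap under this scaling. They did overlap with the percentile taken over all probes, with quantile normalization, and with arrays centred on the median of the tested miRNAs. Under the scaling used here, the means were 7.95 ± 0.23 in ARM and 8.33 ± 0.11 in control (SD, n = 3 each). The difference was -0.39 (SE 0.19), or 0.765-fold with a 95% interval of 0.564 to 1.04 (limma, adjusted p = 0.153; p = 0.1 by the two-sided exact permutation test, which can go no lower).

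For miR-214-3p, which in mouse muscle precursors represses the histone methyltransferase Ezh2, the scaled log2 levels were 10.15, 9.88 and 9.91 in ARM, against 10.28, 10.12 and 10.54 in control. ARM replicate 1 lay just above control replicate 2, and the other 2 ARM arrays lay below every control. With quantile normalization in place of this scaling, or with normexp background correction, the groups did not overlap. Under the scaling used here, the means were 9.98 ± 0.15 in ARM and 10.31 ± 0.21 in control (SD, n = 3 each). The difference was -0.33 (SE 0.19), or 0.796-fold with a 95% interval of 0.585 to 1.08 (limma, adjusted p = 0.207; two-sided exact permutation test, p = 0.2). In whole tissue, fewer cells of a type and less RNA per cell cannot be told apart.

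**Figure D2:**
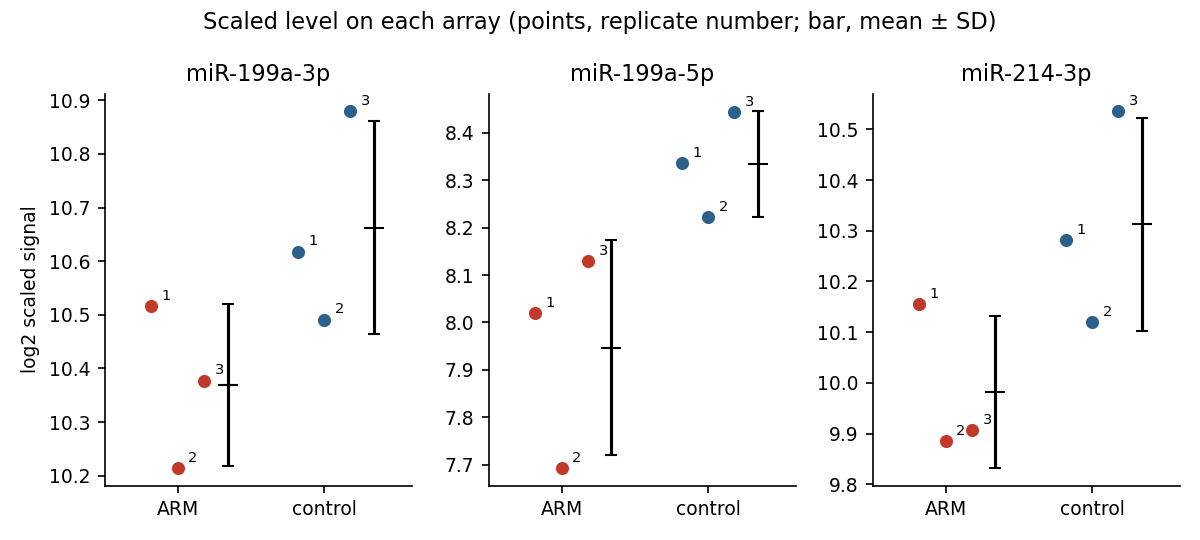
Scaled level (log2, axis not from 0) of each member on the 3 ARM arrays (left) and the 3 control arrays (right), with replicate numbers and mean ± SD. ARM replicate 2 is the lowest and control replicate 3 the highest array for all 3 members, and the groups are apart for miR-199a-5p.

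The members were then set beside all tested miRNAs. Over the 230 tested miRNAs, 31 passed the limma test at 0.05 (13.5%), 26 of them lower in ARM (11.3%), and 0 of the 3 members did. That count of 31 ranged from 0 to 92 when single arrays were left out. By unadjusted limma p below 0.05 the number was 94 of 230 (40.9%), again with 0 members, since their unadjusted limma p-values were 0.158, 0.0763 and 0.122. The groups of arrays did not overlap for 112 of 230 tested miRNAs (48.7%), 52 of them lower in ARM (22.6%), and for 1 of the 3 members. A negative difference, without any test, was found for 93 of 230 (40.4%) and for all 3 members, which stood 69th to 75th from the lowest. The median difference over all tested miRNAs was 0.17, and relative to it miR-199a-3p was at -0.47, miR-199a-5p at -0.56 and miR-214-3p at -0.50.

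**Figure D3:**
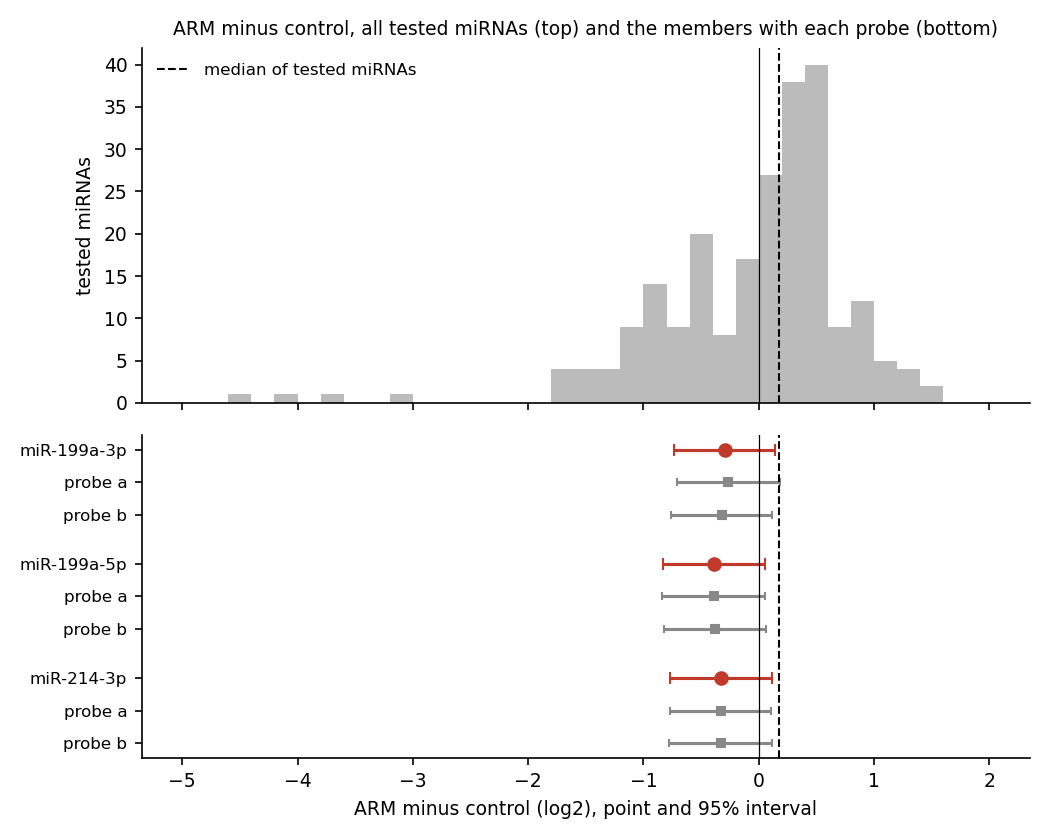
Top, number of tested miRNAs by ARM minus control (log2), with the median of all tested miRNAs dashed. Bottom, the difference with its 95% interval for each member (circles) and each of its 2 probes (squares): all 9 estimates lie between -0.39 and -0.27, and every interval includes 0.

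The brightness scaling moved the size of the difference and the call. Without scaling, miR-199a-3p was at -0.61 (SE 0.14) and miR-214-3p at -0.64 (SE 0.14), both past the threshold (limma, adjusted p = 0.0491 for each), while miR-199a-5p at -0.70 (SE 0.18) was not (limma, adjusted p = 0.0524). Of all 230 tested miRNAs, 30 passed as lower in ARM without scaling (13%). In that setting the median over all tested miRNAs was -0.13, and relative to it the members were at -0.47, -0.57 and -0.51 in the same order. With each array centred on the median of the tested miRNAs the differences were -0.13, -0.22 and -0.16, and relative to the median of all differences, 0.34 there, they were -0.47, -0.56 and -0.50. A factor common to an array cannot move this relative value except through the floor, so its constancy over the settings that only rescale arrays was fixed beforehand. Over all 21 alternatives the value relative to the median of tested miRNAs ranged from -0.57 to -0.33 for miR-199a-3p, from -0.63 to -0.42 for miR-199a-5p and from -0.62 to -0.36 for miR-214-3p. Only the 2 unscaled values passed the test.

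**Figure D4:**
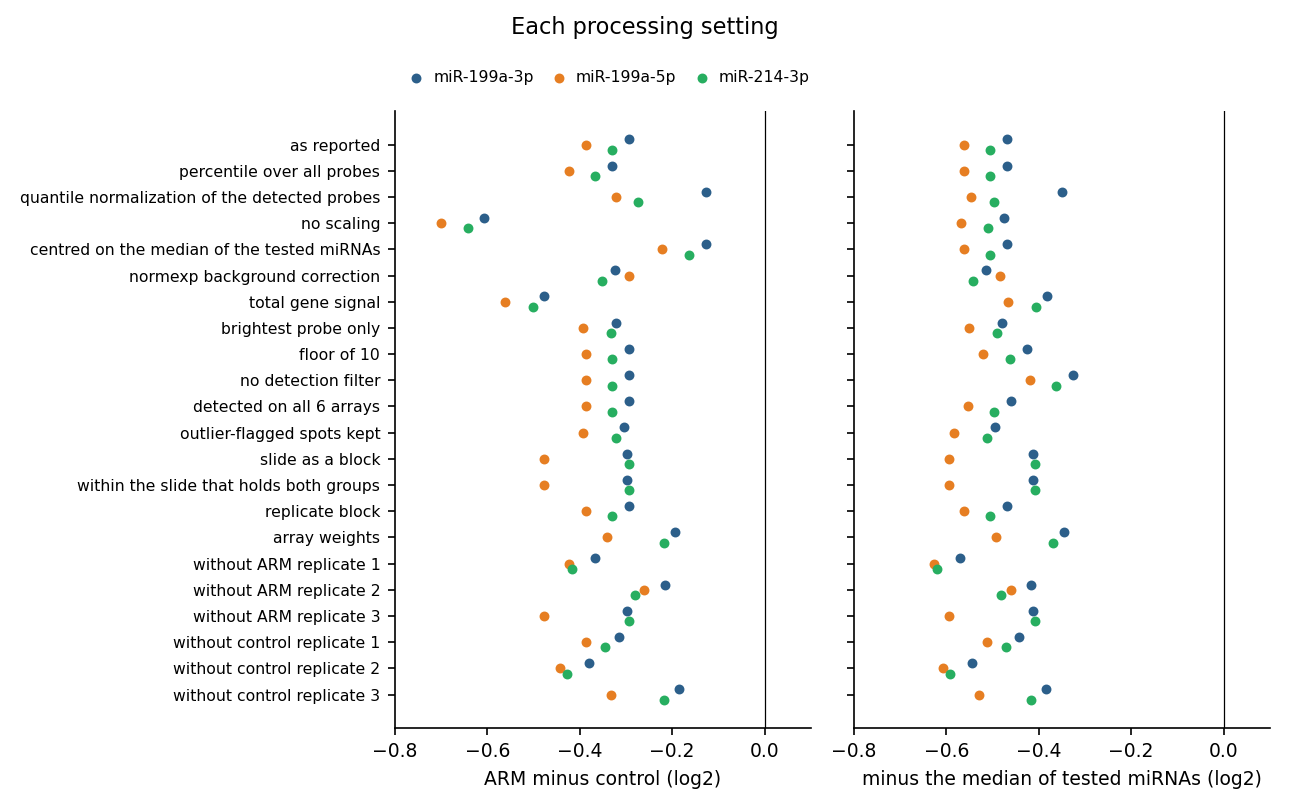
ARM minus control (log2) of each member under each processing setting, as it stands (left) and minus the median of all miRNAs tested in that setting (right). Every point lies below 0; the values on the left reach -0.70 without scaling and -0.13 with array medians aligned or with quantile normalization, and those on the right stay between -0.63 and -0.33.

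The probes of a member gave nearly the same difference. In a limma fit over the 390 probes detected on at least 3 arrays, 58 passed (14.9%), and none of the 6 member probes did. The differences were -0.27 (SE 0.19) and -0.32 (SE 0.19) for the probes of miR-199a-3p, -0.39 (SE 0.19) and -0.38 (SE 0.19) for those of miR-199a-5p, and -0.33 (SE 0.19) for both of those of miR-214-3p. The groups did not overlap for 3 of the 6 member probes, both of miR-199a-5p and 1 of miR-199a-3p, beside 174 of all 390 probes (44.6%).

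The levels of miR-199a-3p and miR-214-3p followed one another from array to array, and miR-199a-5p followed them less closely. Within ARM, miR-199a-5p was highest in replicate 3, whereas miR-199a-3p and miR-214-3p were highest in replicate 1. After each was centred on its mean over the 6 arrays, miR-199a-3p and miR-214-3p differed by a root mean square of 0.047 log2 units, the smallest of 229 for either, against a median of 0.43 between miR-199a-3p and all other tested miRNAs. The corresponding value of miR-199a-5p was 0.11 with miR-199a-3p, 6th of 229 as seen from miR-199a-3p and 4th as seen from miR-199a-5p, and 0.14 with miR-214-3p, 7th of 229 for each. These are descriptions over 6 arrays that share their scaling and brightness, and miRNAs that vary little lie close to one another by this measure. The range of a member over the 6 arrays was 0.66, 0.75 and 0.65 log2 units for miR-199a-3p, miR-199a-5p and miR-214-3p, against a median of 0.99 over all tested miRNAs.

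Whether the members changed unequally was asked with the difference between members within each array. On the log2 scale, ARM minus control, miR-199a-3p minus miR-199a-5p gave 0.09, miR-199a-3p minus miR-214-3p gave 0.04, and miR-199a-5p minus miR-214-3p gave -0.06. None of the 3 pairs was separated between the groups (two-sided exact permutation tests, p = 0.4, 0.7 and 0.8, adjusted p = 0.8 for each). The within-array difference of miR-199a-3p and miR-214-3p had an SD of 0.07 in ARM and 0.02 in control (n = 3 each), smaller than the change of either. For miR-199a-5p minus miR-214-3p it was 0.22 in ARM and 0.10 in control. With 3 arrays per group the exact permutation test can give no p below 0.1, whatever the size of the difference. For none of the 3 pairs can it therefore decide whether the members changed equally or unequally.

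The miRNAs closest to the members in profile were, beside the members themselves, miR-23a-3p (0.073), miR-100-5p (0.088) and let-7b-5p (0.099) for miR-199a-3p, where the value is the root mean square difference in log2 units over 6 arrays. For miR-214-3p the same 3 names came first, let-7b-5p at 0.062, miR-100-5p at 0.090 and miR-23a-3p at 0.091. For miR-199a-5p they were miR-125b-5p (0.11), miR-140-3p (0.11) and miR-152-3p (0.11). None of these 6 passed the test: their differences, ARM minus control, ran from -0.54 (SE 0.21, limma adjusted p = 0.104) for miR-152-3p to -0.18 (SE 0.18, limma adjusted p = 0.448) for miR-140-3p.

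Other miRNAs of stroma and matrix moved in both directions, as tested miRNAs did in general. Of 20 such miRNAs listed, 17 were tested, 1 rose (beside 2.17% of all tested miRNAs), 2 fell (beside 11.3%) and 14 did not pass. Of the 17 differences, 7 were negative (beside 40.4% of all tested miRNAs). The list median was 0.13, beside 0.17 for all tested miRNAs. The rise was of miR-10b-5p, encoded in a Hox gene cluster (1.30, SE 0.30, limma adjusted p = 0.0385), and the falls were of miR-322-5p (-1.09, SE 0.20, limma adjusted p = 0.0330) and miR-503-5p (-1.54, SE 0.30, limma adjusted p = 0.0337), which share a precursor cluster on the X chromosome and restrain the cell cycle. The 4 of highest mean signal did not pass: miR-130a-3p at 0.42 (SE 0.18), miR-143-3p at 0.47 (SE 0.24), miR-125b-5p at -0.32 (SE 0.22) and miR-21-5p at 0.49 (SE 0.21).

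The smooth muscle miRNA miR-143-3p, another product of gut mesenchyme in mouse, was set against the members after its value had been seen. Its scaled log2 level was 9.49, 9.48 and 9.55 in ARM, against 8.76, 8.82 and 9.55 in control. Control replicate 3 was level with ARM, and the other 2 controls were lower. Within arrays, the change of miR-199a-3p minus that of miR-143-3p was -0.76, that of miR-199a-5p minus it was -0.85, and that of miR-214-3p minus it was -0.80, with no overlap between the groups for any of the 3 (p = 0.1 for each by two-sided exact permutation tests, which can go no lower; adjusted p = 0.1). These differences do not depend on the scaling by a single factor per array. Over the 21 alternatives the 3 values lay between -1.05 and -0.63. The difference of miR-143-3p itself was 0.29 above the median difference of all tested miRNAs. How many other tested miRNAs had no overlap when set against it was not counted. The separation is therefore not shown to be particular to the members.

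Markers of several other tissues also differed between the groups. The summed scaled signal of the 8 striated muscle miRNAs was 114 to 272 in ARM, against 805 to 3494 in control. Of these 8, 5 were tested and 4 fell (beside 11.3% of all tested miRNAs), while miR-208a-3p, miR-208b-3p and miR-499-5p were detected on no array. The sum of the 9 intestinal epithelial miRNAs was 1668 to 2659 in ARM, against 513 to 1481 in control, with 0 of 9 tested members called (beside 2.17% of all tested miRNAs called higher) and no negative difference (beside 40.4% of all tested miRNAs). Both tested members of the erythroid list of 3 fell (beside the same 11.3%), with a summed signal of 69.6 to 108 in ARM, against 206 to 372 in control. The liver miRNA miR-122-5p, the 1 member of its list, also fell, at 2.13 to 21.7 in ARM, against 107 to 213 in control. No tested member of the remaining lists passed. The summed signal was 777 to 827 in ARM and 471 to 809 in control for the 4 smooth muscle miRNAs, and 189 to 224 in ARM and 191 to 242 in control for the 2 of endothelium. It was 46.2 to 73.1 in ARM and 48.7 to 56.2 in control for the 4 of leukocytes, and 78.3 to 118 in ARM and 106 to 121 in control for the 6 of neurons and glia. The median differences were 0.56, -0.04, 0.16 and -0.54 for these lists in that order, over only 2, 1, 3 and 2 tested miRNAs. The value of endothelium was that of miR-126a-3p alone. Those of leukocytes ran from -0.38 (miR-142-3p) to 0.27 (miR-223-3p). For neurons and glia the median lay between miR-128-3p at -1.39 and miR-218a-5p at 0.32. The summed signal of the 4 mesenchymal arms was 2342 to 2865 in ARM, against 2851 to 3717 in control. The part of these other tissues in the members' difference was not tested, and which cells carried the members' RNA is not shown by the arrays.

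**Figure D5:**
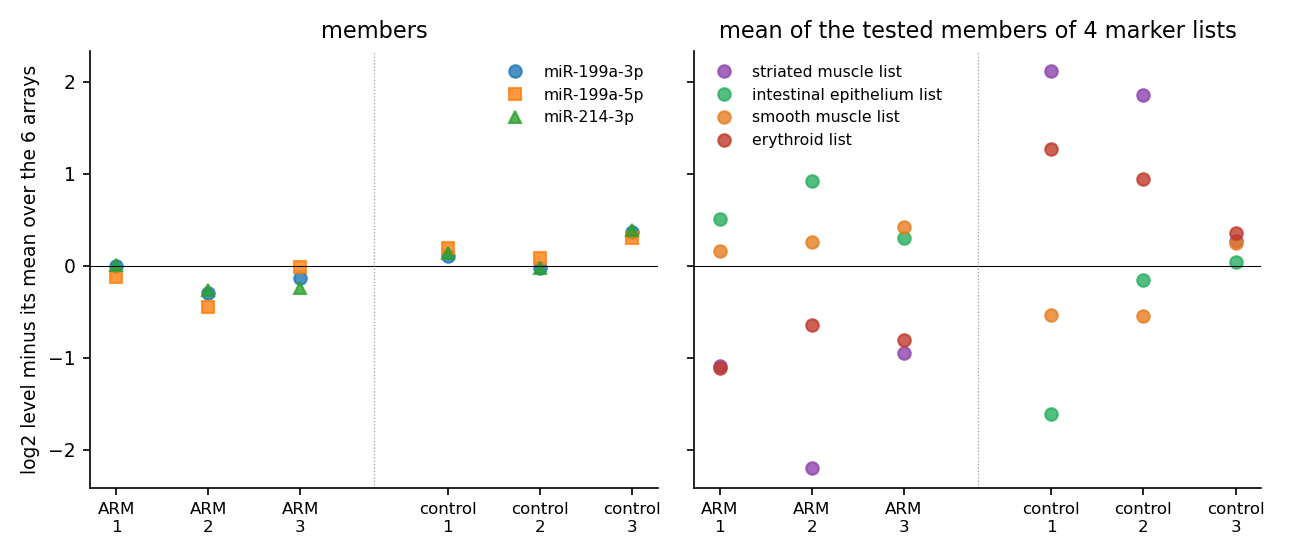
Log2 level minus its mean over the 6 arrays, for the 3 members (left) and for the mean of the tested members of 4 marker lists (right), on the 3 ARM and 3 control arrays and on 1 common vertical scale. Each member stays within 0.75 log2 units from its lowest to its highest array, and miR-199a-3p and miR-214-3p lie close together. miR-199a-5p lies apart from miR-214-3p on ARM replicate 2 (-0.45 against -0.26) and ARM replicate 3 (-0.01 against -0.24). The striated muscle and epithelial lists spread over more of the axis in opposite directions.

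No member passed the test when single arrays were left out or within 1 slide. Of all 230 tested miRNAs, 0 passed within slide 1, and 0 to 92 passed when single arrays were left out. In a setting where 0 passed, this outcome does not set the members apart from the other miRNAs. Leaving out each array in turn gave -0.38 to -0.19 for miR-199a-3p, -0.48 to -0.26 for miR-199a-5p and -0.43 to -0.22 for miR-214-3p. Within slide 1, which held 2 ARM and 3 control arrays, the differences were -0.30 (SE 0.24), -0.48 (SE 0.22) and -0.29 (SE 0.24) in that order (limma, adjusted p = 0.387, 0.177 and 0.390). Slide 2 held 1 array, ARM replicate 3, and gives no value of its own. The fit within slide 1 is therefore the same as the one that leaves out ARM replicate 3.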

How the data were processed

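Per the file headers, Agilent Feature Extraction 10.7.1.1 produced the deposited intensity values by subtracting background and removing spatial trends, with no scaling between arrays. The deposited value table held the same intensity for every spot (largest difference 0), so it equals the setting without scaling. Its column medians lay between 2.10 and 2.84 for ARM and between 1.84 and 3.16 for control. The labels' protocols describe a cRNA labelling kit, whereas the file headers name a miRNA extraction protocol.

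Groups and replicate numbers are from the sample titles. Spots flagged as outliers were dropped and the others averaged per probe. A probe was detected when a share of 0.5 or more of its spots exceeded background clearly. Arrays were scaled to the 75th percentile of the 300 probes that all 6 detected, floored at 1, converted to log2 and averaged over the probes of a miRNA. A miRNA was tested when a probe was detected on at least 3 arrays. ARM was compared with control by limma 3.58.1 in R 4.3.3 (lmFit, eBayes) with Benjamini-Hochberg adjustment over the 230 tested miRNAs; the step was tested on simulated data. Exact permutation tests used all splits of 3 against 3. Precision is limited by the number of arrays. The members, lists and tests were chosen with earlier results of these data known. Named were the members and their probes, relatives by name or seed, stroma miRNAs that passed or had the 4 highest mean signals, and the 3 closest profiles of each member. Alternatives changed the scaling, background correction, probe summary, floor, detection filter, outlier spots, slide, pairing and array weights, and left out each array; probes and tested miRNAs stayed those of all 6 arrays then.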

Additional observations from a re-analysis of the deposited data

How the results depend on the processing

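The 21 alternatives were not 21 separate checks on the members. A floor of 10, no detection filter, detection on all 6 arrays and the replicate block left the members' differences at -0.29, -0.39 and -0.33. These settings could not move them, so their sign was fixed beforehand. Slide as a block, slide 1 alone and leaving out ARM replicate 3 gave the same values, -0.30, -0.48 and -0.29. With that limit, all 3 members kept a negative difference under each of the 21 alternatives. The difference ranged from -0.61 to -0.13 for miR-199a-3p (limma adjusted p = 0.0491 to 0.661), from -0.70 to -0.22 for miR-199a-5p (0.0524 to 0.438) and from -0.64 to -0.16 for miR-214-3p (0.0491 to 0.597); the values past the threshold, -0.61 and -0.64, came without scaling. The differences between members are small and turned sign in places: miR-199a-3p minus miR-199a-5p was -0.031 and miR-199a-5p minus miR-214-3p was 0.059 with normexp background correction, and miR-199a-3p minus miR-214-3p was -0.0046 with slide as a block or within slide 1. Leaving out single arrays, the 3 pairs ran from 0.044 to 0.18 (miR-199a-3p minus miR-199a-5p), from -0.185 to 0.021 (miR-199a-5p minus miR-214-3p) and from -0.0046 to 0.065 (miR-199a-3p minus miR-214-3p). The cause was not tested.

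The count of all miRNAs passing the test, 31, was 16 with normexp background correction and 87 with array weights. It ranged from 0 to 92 when single arrays were left out: leaving out ARM replicate 1 gave 10, ARM replicate 2 gave 6 and control replicate 3 gave 92, while ARM replicate 3, control replicate 1 and control replicate 2 each gave 0 (limma, 78, 62 and 73 with an unadjusted p below 0.05). It was 0 without a detection filter (limma, 134 at an unadjusted p below 0.05, of 758 tested), and 0 with slide as a block or within slide 1 (limma, 78 at an unadjusted p below 0.05). With the replicate block it was 0 (limma, 73 at an unadjusted p below 0.05), and miR-199a-3p, miR-199a-5p and miR-214-3p kept differences of -0.29, -0.39 and -0.33. The labels state no pairing by replicate number. Deviations of same-numbered arrays from their group means correlated at -0.07, -0.28 and -0.21 across tested miRNAs, and those of differently numbered arrays at -0.33 to 0.47. With 3 arrays per group these values cannot show whether the samples were paired.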
